A study of Homo sapiens with 16 samples.

Results

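The 9 genes described here include those of the SLIT ligands (SLIT1, SLIT2, SLIT3) and the ROBO receptors (ROBO1, ROBO2, ROBO3). The others encode the GTPase activating proteins (srGAPs) that act below the receptors (SRGAP1, SRGAP2, SRGAP3). The 9 are among the 26364 genes counted in each cell line. The family was chosen by measured values, since the response of ROBO2 to estradiol differed between the lines in these libraries, so the changes of ROBO2 in both lines and the difference between them are given as a description, with no test. Calls are counted over the other 8 genes only. The measurements are gene counts from bulk poly(A) RNA-seq of 16 libraries. Ishikawa is an established line from a human endometrial adenocarcinoma, and T-47D is an established line from a human breast carcinoma. Both were held in hormone-deprived medium and then given 10 nM 17β-estradiol (E2), the ligand of estrogen receptor alpha, for 0, 2, 4 or 8 h, with 2 replicates at each time in each line. The 0 h cells were deprived of hormone in the same way and, by the study's methods, received the vehicle. Each group therefore rests on 1 line without a second line of its tissue, and no source states that replicates came from separate cultures, so p-values measure the spread between these libraries, which may be technical.

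SLIT proteins are secreted, and the cleaved N-terminal fragment binds the outermost immunoglobulin domain of ROBO1 and ROBO2. Inside the cell ROBO receptors carry no enzyme of their own. They recruit srGAPs, Ena/VASP proteins, the ABL kinase and the NCK-PAK adaptor pair, which act on small GTPases and actin. The pathway is best known for repelling axons at the midline. In the breast it keeps the layers of the mammary duct together and limits branching, and SLIT and ROBO genes are also expressed in the endometrium and ovary.

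SLIT2 and SLIT3 each carry in an intron a copy of the microRNA miR-218, and both copies give the same 5p strand. Its sequence is shown because its seed, bases 2 to 8 in capitals, pairs with the 3′ untranslated regions of several genes of the same pathway. The mature sequence is from RefSeq.
hsa-miR-218-5p: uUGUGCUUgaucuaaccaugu
The complement of the seed, AAGCACA, was looked for on the sense strand of the canonical 3′ untranslated region of each gene. It was found 2 times in ROBO2, SLIT2 and SRGAP1, 1 time in ROBO1 and SLIT3, and not in ROBO3, SLIT1 or SRGAP3. Of 19392 such regions, 2724 (14%) hold it. SRGAP2 has no canonical transcript in the annotation used and was not searched. The lengths searched differ widely, from 0.221 kb in ROBO3 to 19.5 kb in SRGAP1, and a match is not a measured binding site. The matches in the 2 receptors and 1 of those in each ligand are printed on the sense strand of GRCh37, with the seed match in capitals.
ROBO1, chr3:78647085-78647106, minus strand: ttttttggttttaaAAGCACAa
ROBO2, chr3:77695648-77695669, plus strand: ttttatttggtgatAAGCACAa
ROBO2, chr3:77698093-77698114, plus strand: atcatgtccaatacAAGCACAg
SLIT2, chr4:20620917-20620938, plus strand: ctgaagacaagcagAAGCACAt
SLIT3, chr5:168090656-168090677, minus strand: ggcaagagtatgggAAGCACAc
Poly(A) libraries do not measure the mature microRNA. The 2 loci of the microRNA itself, MIR218-1 and MIR218-2, held between 0 and 2 counts in every library.

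The 250 bases before the annotated start are printed for 4 genes, because these are the ones whose counts differed most between the lines at 0 h. Capitals mark GGGCGG, the core of the GC box, or its reverse complement CCGCCC. Each sequence is from GRCh37, the build called hg19 by the submitters, and is written in the direction of transcription.
ROBO2, chr3:77089000-77089249, plus strand: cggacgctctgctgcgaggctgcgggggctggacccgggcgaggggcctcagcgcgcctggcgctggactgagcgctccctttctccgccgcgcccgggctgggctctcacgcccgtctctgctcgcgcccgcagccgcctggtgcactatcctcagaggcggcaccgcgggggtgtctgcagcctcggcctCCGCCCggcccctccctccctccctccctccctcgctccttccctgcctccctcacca
SLIT2, chr4:20253278-20253527, plus strand: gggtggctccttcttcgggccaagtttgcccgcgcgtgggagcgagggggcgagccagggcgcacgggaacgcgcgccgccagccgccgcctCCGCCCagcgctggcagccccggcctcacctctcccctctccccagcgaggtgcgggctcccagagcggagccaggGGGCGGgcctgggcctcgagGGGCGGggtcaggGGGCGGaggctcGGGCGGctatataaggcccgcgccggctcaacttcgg
SLIT3, chr5:168728144-168728393, minus strand: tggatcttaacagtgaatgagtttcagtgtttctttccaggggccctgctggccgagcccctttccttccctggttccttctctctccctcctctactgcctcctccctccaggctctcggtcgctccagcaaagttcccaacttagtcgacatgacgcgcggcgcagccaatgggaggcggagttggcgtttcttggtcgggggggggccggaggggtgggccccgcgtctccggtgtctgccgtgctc
SRGAP3, chr3:9291331-9291580, minus strand: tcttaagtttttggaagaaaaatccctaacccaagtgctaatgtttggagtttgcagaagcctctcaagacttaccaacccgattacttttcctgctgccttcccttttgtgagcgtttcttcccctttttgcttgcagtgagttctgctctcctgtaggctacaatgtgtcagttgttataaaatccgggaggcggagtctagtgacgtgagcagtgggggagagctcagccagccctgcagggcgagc
The stretch before SLIT2 was 77.2% G or C and held 5 GC boxes on either strand, that before ROBO2 was 76.0% G or C and held 1, and those before SLIT3 (62.8%) and SRGAP3 (49.2%) held none. Over all 19868 protein-coding genes with an annotated start, 59.1% hold at least 1 in the same 250 bases. The full estrogen response element, the half-sites GGTCA and TGACC with any 3 bases between them, reads the same on both strands. It was not found within 5 kb of the start of any of the 8 genes searched (SRGAP2 was not), and it lies in that window in 0.966% of genes. The AP-1 motif TGANTCA, also a palindrome, was found within 5 kb of all 8 and of 92.4% of genes. These letters were looked for in these windows only.

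The genes range in size from 16.04 kb for ROBO3 (chr11:124735328-124751367, plus strand) to 1743 kb for ROBO2 (chr3:75955846-77699115, plus strand). ROBO2 and SRGAP3 (chr3:9022275-9404737, minus strand) have annotated starts far upstream of those printed, and the counts do not separate them. ROBO1 lies beyond the 3′ end of ROBO2 on chromosome 3, on the opposite strand (chr3:78646389-79817148). SLIT3 shares 113 to 334 exonic bases with each of 3 transcripts on the opposite strand that were not counted. The library kit marks strand, but no source states that counting used it, so reads from these transcripts and from SLIT3 cannot be told apart.

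Library totals lay between 41177912 and 64148903 counts. Counts were scaled to counts per 1000000 (CPM) on library sizes corrected by the trimmed mean of M values (TMM). Both lines had all 6 epithelial markers above 1 CPM, ESR1 among them. The 4 endometrial markers (PAX8, SOX17, EMX2, HOXA10) summed to between 348 and 469 CPM in Ishikawa libraries and to at most 0.0495 CPM in T-47D libraries. The 4 breast luminal markers summed to between 1720 and 2040 CPM in T-47D libraries and to between 16.3 and 24.7 CPM in Ishikawa libraries. The E2 target GREB1 rose in both lines, by 1.65 on the log2 scale at 8 h in Ishikawa cells (SE 0.12, edgeR adjusted p = 1.73e-07) and by 2.15 in T-47D cells (SE 0.05, edgeR adjusted p = 3.68e-15). PGR also rose at 8 h, by 3.75 in Ishikawa (SE 0.18, edgeR adjusted p = 2.48e-09) and by 1.09 in T-47D cells (SE 0.04, edgeR adjusted p = 6.51e-13). TFF1 had no count in any Ishikawa library. In T-47D cells TFF1 rose by 1.70 at 8 h (SE 0.29, edgeR adjusted p = 0.000243) and was not called at 2 h (edgeR adjusted p = 0.141). The late Ishikawa libraries did not separate by their labels. The replicate pair differed by a root mean square of 0.391 at 4 h and 0.353 at 8 h (log2, over 15787 genes), while replicate 2 of 4 h and replicate 1 of 8 h differed by 0.329. Only 2 genes differed between 8 h and 4 h in Ishikawa cells (554 at an unadjusted p under 0.05), against 533 in T-47D cells. The 4 h and 8 h Ishikawa libraries are therefore also given below as 1 group of 4.

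At 0 h the lines differed in which genes they expressed, with the 3 SLIT genes higher in Ishikawa cells and ROBO1, ROBO2 and the 3 SRGAP genes higher in T-47D cells. Levels of different genes are compared here as CPM per kb of the union of annotated exons (mean ± SD, n = 2). SLIT2 stood highest in Ishikawa cells at 22.9 ± 0.589, followed by ROBO1 at 6.22 ± 0.333, SRGAP2 at 3.55 ± 0.0677 and SLIT3 at 2.56 ± 0.00388. SRGAP1, SLIT1, SRGAP3, ROBO3 and ROBO2 came next in that order, from 0.562 down to 0.0172. In T-47D cells ROBO1 stood highest at 17.6 ± 0.0594, followed by SRGAP2 at 14.7 ± 0.871, ROBO2 at 4.93 ± 0.170, SRGAP3 at 1.26 ± 0.0840 and SRGAP1 at 1.11 ± 0.0622. ROBO3, SLIT1 and SLIT3 lay at 0.108 and below, and SLIT2 had no count in any of the 8 T-47D libraries. In neither line did the 2 libraries of any gene overlap those of the next gene in the order. With the longest annotated transcript as the length the order was the same in both lines. Both lengths are from GENCODE v44, while the counts were made over UCSC Known Genes. The check does not cover that difference.

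**Figure D1:**
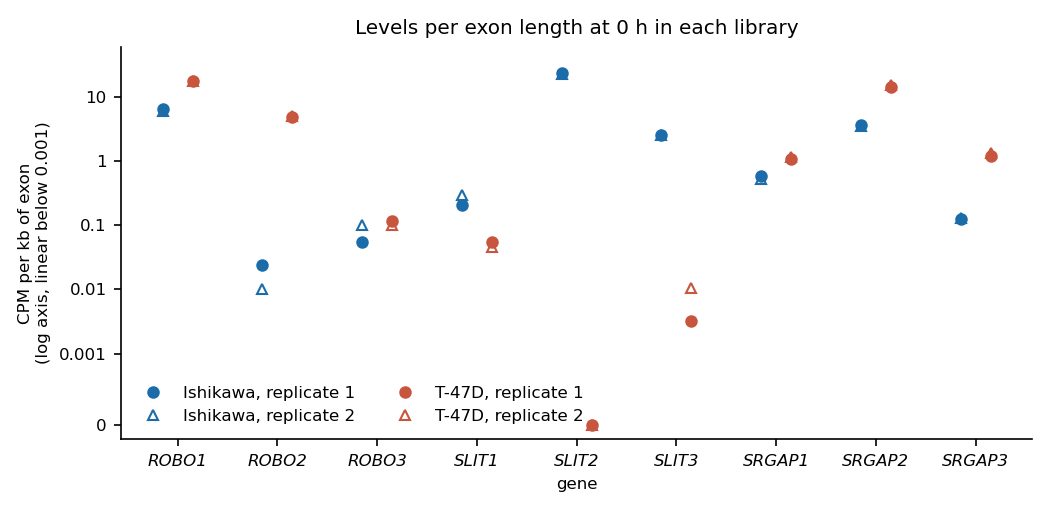
CPM per kb of exon (log axis, linear below 0.001) of each gene in the 2 libraries of each line at 0 h, circles for replicate 1 and triangles for replicate 2. SLIT2 lies near 23 in Ishikawa and at 0 in T-47D, and ROBO2 lies below 0.03 in Ishikawa and near 5 in T-47D.

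Of the 8 genes other than ROBO2, 7 differed between the lines at 0 h by edgeR's quasi-likelihood test at an adjusted p under 0.05, a threshold that 81.9% of all 17090 genes tested passed. SLIT2, which encodes the ligand most studied in ducts and vessels, stood at 258 and 249 CPM in Ishikawa and at 0 counts in T-47D cells. If 1 count is 1 fragment and 0 counts allow up to 3 per library, SLIT2 was at least 3530-fold lower in T-47D cells. A count need not be 1 fragment here, as described below for low counts, so the true bound may be smaller. SLIT3 had 1714 and 1750 counts in Ishikawa and 2 and 6 in T-47D cells, a log2 difference (T-47D minus Ishikawa) of -8.54 (SE 0.54, edgeR adjusted p = 7.70e-12). SLIT1, with 89 and 131 counts against 22 and 17, differed by -2.31 (SE 0.36, edgeR adjusted p = 6.59e-06). All 3 ligands were thus lower in T-47D cells. The other 4 calls were higher in T-47D cells, ROBO1 by 1.5 (SE 0.06), SRGAP1 by 0.98 (SE 0.08), SRGAP2 by 2.05 (SE 0.06) and SRGAP3 by 3.30 (SE 0.12), with edgeR adjusted p of at most 9.76e-10. ROBO2 stood at 8 to 19 counts in Ishikawa and 3398 to 3468 in T-47D cells, a log2 difference of 8.16 (SE 0.16). ROBO3 had 18 and 34 counts in Ishikawa and 35 and 28 in T-47D cells, a difference of 0.46 (SE 0.38, edgeR adjusted p = 0.269). The lines were grown and handled as lines, so cell line and handling cannot be told apart.

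ROBO1, the main ROBO receptor outside the nervous system, was steady in Ishikawa cells and fell in T-47D cells. In T-47D cells its 2 libraries held 194 and 195 CPM at 0 h, 192 and 196 after 2 h, 164 and 167 after 4 h, and 154 and 150.3 after 8 h. The 4 h and 8 h libraries all lay below every 0 h and 2 h library. ROBO1 fell by 0.24 on the log2 scale at 4 h (SE 0.04, edgeR adjusted p = 0.000408) and by 0.35 at 8 h (SE 0.04, edgeR adjusted p = 4.05e-06), and it also fell between 2 h and 8 h, by 0.34 (SE 0.04, edgeR adjusted p = 1.71e-05). At 2 h its log2 fold change was -0.01 (SE 0.04). The summed CPM of 6 fibroblast and stroma markers in T-47D cells was 94.5 and 103 at 0 h and 91.8 and 98.0 after 2 h. It was 85.3 and 92.4 after 4 h, and 84.1 and 77.7 after 8 h. Most of this sum was COL1A1, at 71.8 to 92.2 CPM in T-47D libraries, with LUM at 3.71 to 8.27 CPM. The part of these markers in the falls of ROBO1 and ROBO2 was not tested. In Ishikawa cells ROBO1 held 71.4 and 66.1 CPM at 0 h, and its later libraries ran from 69.5 to 78.7 CPM. Its log2 fold changes there were 0.05, 0.11 and 0.11 at 2, 4 and 8 h (SE 0.07 each), and none passed the test.

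ROBO2, a receptor of the same kind, went up from a few counts in Ishikawa cells and down from a high level in T-47D cells. In Ishikawa cells it had 19 and 8 counts at 0 h, 32 and 33 after 2 h, 86 and 58 after 4 h, and 109 and 89 after 8 h. These are 0.404 and 0.167 CPM at 0 h and 1.82 and 1.98 CPM at 8 h, and no library of a later time overlapped those of 0 h. The log2 fold change was 1.20 (SE 0.43) at 2 h, 2.59 (SE 0.39) at 4 h and 2.72 (SE 0.38) at 8 h, a 6.59-fold difference. Its size rests on the 2 low libraries at 0 h, since without replicate 1 of 0 h the 8 h value was 3.48 and without replicate 2 it was 2.23. With the 4 late libraries as 1 group it was 2.66 (SE 0.34). In T-47D cells ROBO2 held 80.1 and 84.1 CPM at 0 h, 82.3 and 85.3 after 2 h, 67.8 and 63.6 after 4 h, and 50.4 and 52.8 after 8 h. Its libraries stepped down at 4 h and again at 8 h, with no overlap between 2, 4 and 8 h. The log2 fold change was 0.02 (SE 0.05) at 2 h, -0.33 (SE 0.05) at 4 h and -0.67 (SE 0.05) at 8 h. At 8 h ROBO2 in Ishikawa cells still stood at 1.90 CPM against 51.6 CPM in T-47D cells.

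ROBO3 differs from the other receptors in binding NELL2 and not SLIT with high affinity, and it was scarce in both lines. In T-47D cells it had 35 and 28 counts at 0 h, 50 and 38 after 2 h, 72 and 75 after 4 h, and 72 and 58 after 8 h. All 4 late libraries lay above both 0 h libraries in CPM. ROBO3 rose by 0.82 on the log2 scale at 8 h (SE 0.28, edgeR adjusted p = 0.0372), and its 4 h value was 0.80 (SE 0.28, edgeR adjusted p = 0.0533). The 8 h call was lost with DESeq2 (adjusted p = 0.118), and also without replicate 1 of 0 h (0.94, edgeR adjusted p = 0.0659), replicate 2 of 0 h (0.72, edgeR adjusted p = 0.165) or replicate 1 of 8 h (0.66, edgeR adjusted p = 0.177). In Ishikawa cells ROBO3 had 18 and 34 counts at 0 h and between 10 and 25 later, and its 8 h log2 fold change was -0.82 (SE 0.48, edgeR adjusted p = 0.247). About 7 in 10 counts from 1 to 10 in each library were even numbers (71.2% to 74.6%), so 1 count need not be 1 fragment and counting error at these levels is larger than the counts imply.

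**Figure D2:**
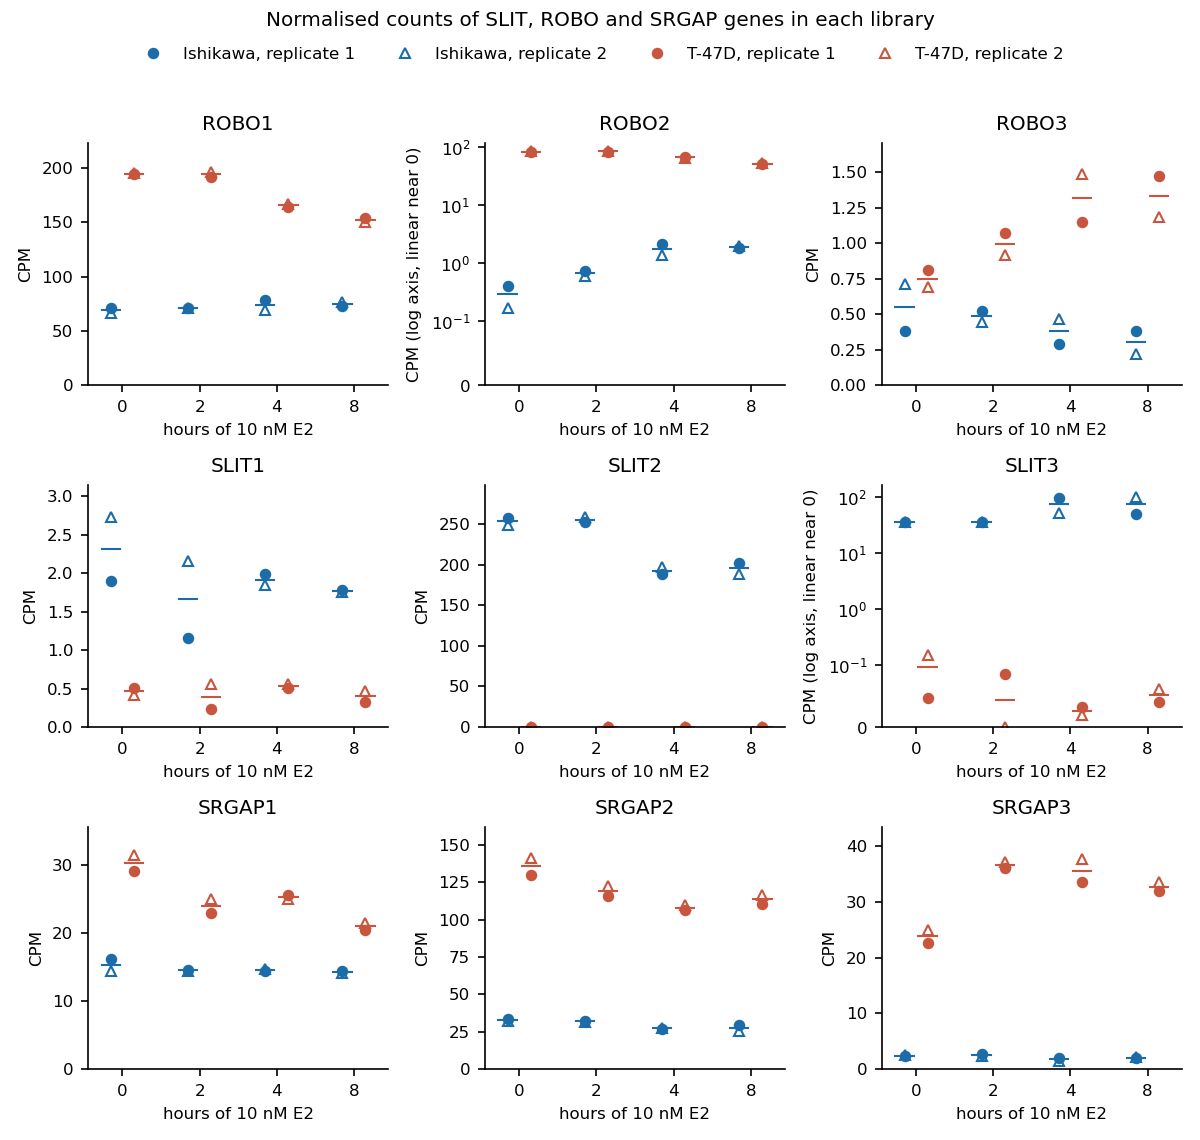
CPM of each gene against hours of E2 in every library, with circles for replicate 1, triangles for replicate 2 and a short line at the mean of 2, in blue for Ishikawa and red for T-47D (ROBO2 and SLIT3 on a log axis that is linear near 0). ROBO2 climbs from below 0.5 to near 2 CPM in Ishikawa and drops from above 80 to near 50 CPM in T-47D, and SLIT3 splits at 4 h and 8 h in Ishikawa into 2 libraries near 100 and 2 near 51 CPM.

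Taken by family, summed CPM per kb shows which receptor and ligand dominate. ROBO1 made up 97.6% to 98.8% of the 3 ROBO genes in Ishikawa libraries. In T-47D libraries it made up 78.1% and 77.4% at 0 h and 81.2% and 80.3% at 8 h, while the share of ROBO2 was 21.4% and 22.1% at 0 h and 17.6% and 18.7% at 8 h. The summed level of the 3 receptors in T-47D cells was 22.5 and 22.8 CPM per kb at 0 h and 17.2 and 16.9 after 8 h. The ratio of ROBO1 to ROBO2 depends on the length taken for each gene.

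SLIT2, a secreted ligand, fell in Ishikawa cells at 4 h and 8 h. It held 258 and 249 CPM at 0 h, 252 and 258 after 2 h, 188 and 197 after 4 h, and 202 and 189 after 8 h. Every late library lay below every 0 h and 2 h library. The fall was 0.39 on the log2 scale at 4 h (log2 fold change -0.39, SE 0.06, edgeR adjusted p = 0.000258), with -0.38 at 8 h (SE 0.06, edgeR adjusted p = 0.000279) and -0.40 from 2 h to 8 h (SE 0.06, edgeR adjusted p = 0.00115). At 2 h the value was 0.02 (SE 0.06). With the 4 late libraries as 1 group it was -0.38 (SE 0.05, edgeR adjusted p = 1.84e-05), and the calls held without each replicate in turn. The summed CPM of the stroma markers in Ishikawa cells, most of it COL1A1, was also lower at 4 h and 8 h. This sum was already lower at 2 h. It was 254 and 277 at 0 h, 215 and 234 after 2 h, 154 and 202 after 4 h, and 187 and 166 after 8 h. COL1A1 alone held between 150 and 269 CPM in Ishikawa libraries, COL3A1 between 3.5 and 7.17 CPM and COL1A2 between 0.543 and 1.49 CPM. DCN, LUM and PDGFRB held at most 0.0334, 0.1 and 0.155 CPM in any Ishikawa library. Other marker sums were also lower late. The endometrial markers held 425 and 469 CPM at 0 h, 348 and 370 after 4 h, and 364 and 353 after 8 h. The epithelial markers held 3130 and 3100 CPM at 0 h and between 2710 and 2980 CPM at 4 h and 8 h. The endothelial sum, at most 8.36 CPM, was lower late too. The breast luminal and neuron sums were higher late, and the leukocyte sum overlapped. The part of any of these lists in the result was not tested. Ishikawa is an established line, and in a bulk sample fewer cells of a type and less RNA per cell cannot be told apart.

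SLIT3, a second ligand, was higher in all 4 late Ishikawa libraries but by unequal amounts. It held 36.5 and 36.6 CPM at 0 h and 36.1 and 35.6 after 2 h. At 4 h replicate 1 held 96.9 and replicate 2 held 52.4 CPM, and at 8 h replicate 1 held 50.9 and replicate 2 held 103 CPM. The 4 early libraries lay within 1 CPM of each other, and the late libraries formed a high and a low pair that crossed the time labels. SLIT3 rose by 1.03 on the log2 scale at 4 h (SE 0.26, edgeR adjusted p = 0.0151) and by 1.07 at 8 h (SE 0.26, edgeR adjusted p = 0.00837), and by 1.09 from 2 h to 8 h (SE 0.26, edgeR adjusted p = 0.0392). As 1 group the late libraries gave 1.05 (SE 0.23, edgeR adjusted p = 0.00317). DESeq2 did not call it (adjusted p = 0.109 at 4 h, 0.0691 at 8 h and 0.187 from 2 h to 8 h). Without replicate 1 of 4 h the 4 h value was 0.53 (edgeR adjusted p = 0.264), and without replicate 2 of 8 h the 8 h value was 0.46 (edgeR adjusted p = 0.144). Without replicate 2 of 4 h it was 1.41, and without replicate 1 of 8 h it was 1.51. The calls were also lost without either 0 h library (edgeR adjusted p between 0.0615 and 0.146). The value from 2 h to 8 h was 0.49 without replicate 2 of 8 h (edgeR adjusted p = 0.445) and 1.53 without replicate 1 of 8 h, and its call was also lost without either 2 h library (edgeR adjusted p = 0.183 and 0.226). The summed stroma markers held 154 and 166 CPM in the 2 libraries with most SLIT3 and 202 and 187 CPM in the other 2 late libraries, and their part in the result was not tested.

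**Figure D3:**
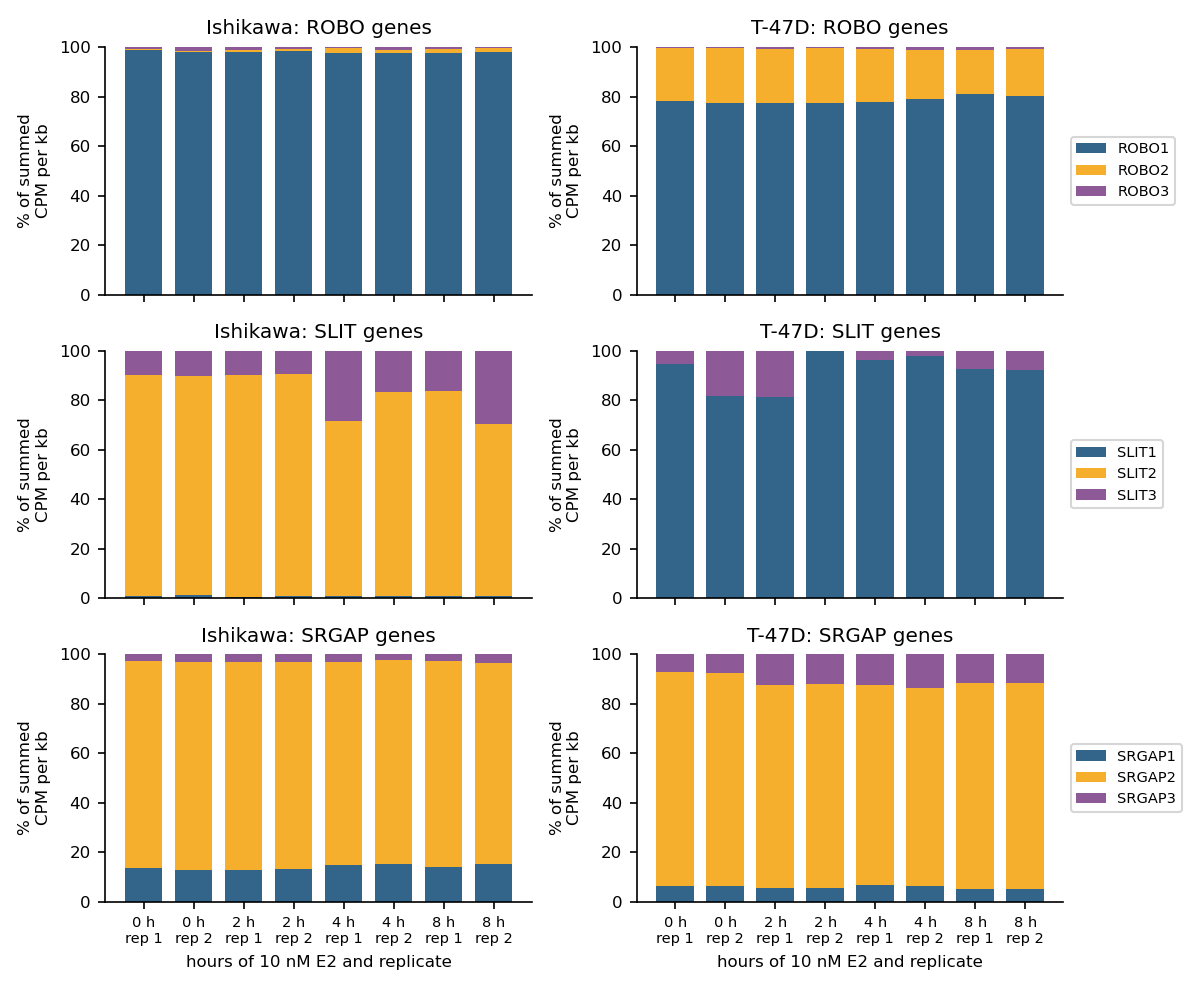
Stacked bars of the share (%) of each gene in the summed CPM per kb of its family, for every library of Ishikawa (left) and T-47D (right). The share of SLIT3 in Ishikawa is 9.59% to 10.1% at 0 h and 2 h and 16.2% to 29.6% at 4 h and 8 h, and that of SRGAP3 in T-47D goes from 7.37% and 7.44% at 0 h to between 11.7% and 13.5% later. The T-47D bars for SLIT rest on at most 32 counts of any 1 gene.

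SLIT1, a ligand found mostly in the nervous system, was low in both lines. It had between 51 and 131 counts in Ishikawa libraries and between 11 and 32 in T-47D libraries, and its log2 fold changes lay between -0.45 and 0.19 with no call. The summed level of the 3 ligands in Ishikawa cells was 26.1 and 25.3 CPM per kb at 0 h and 22.0 and 24.5 after 8 h, while the share of SLIT2 in it went from 89.4% and 88.7% to 82.9% and 69.6%. In T-47D cells SLIT2 stayed at 0 counts and SLIT3 between 0 and 6 counts at all times, so neither was tested there.

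SRGAP3, also called WRP, inactivates RAC1, and it rose in T-47D cells from 2 h on. It held 22.7 and 24.9 CPM at 0 h, 36.1 and 37.2 after 2 h, 33.6 and 37.7 after 4 h, and 32.0 and 33.5 after 8 h. All 6 later libraries lay above both 0 h libraries. SRGAP3 rose by 0.62 on the log2 scale at 2 h (SE 0.07, edgeR adjusted p = 1.38e-05), by 0.57 at 4 h (SE 0.07, edgeR adjusted p = 1.65e-05) and by 0.46 at 8 h (SE 0.07, edgeR adjusted p = 0.00012), and each call held without each replicate in turn. The 6 epithelial markers summed to 10600 and 10100 CPM at 0 h and to between 12700 and 13200 CPM in the later T-47D libraries. The 4 breast luminal markers went the other way, from 2040 CPM in both 0 h libraries to between 1720 and 1920 CPM later. The part of either list in the result was not tested. SRGAP3 shares 83 exonic bases with THUMPD3, on the opposite strand, which are 0.44% of the SRGAP3 exons. THUMPD3 held 72.8 to 74.7 CPM at 0 h and 70.7 to 79.0 later. A gene on the same strand that was not counted shares 373 exonic bases (1.98%) with SRGAP3. Reads from those bases cannot be told apart. In Ishikawa cells SRGAP3 had 110 and 119 counts at 0 h and 64 to 131 later, and its log2 fold changes lay between -0.43 and 0.04 with no call.

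SRGAP1, which inactivates CDC42, fell in T-47D cells. Its libraries held 29.1 and 31.5 CPM at 0 h, 23.0 and 25.1 after 2 h, 25.6 and 25.1 after 4 h, and 20.5 and 21.6 after 8 h. No later library reached the lower 0 h library. It fell by 0.34 on the log2 scale at 2 h (SE 0.08, edgeR adjusted p = 0.00585), by 0.26 at 4 h (SE 0.07, edgeR adjusted p = 0.0164) and by 0.53 at 8 h (SE 0.08, edgeR adjusted p = 3.6e-05). The 8 h call held without each replicate in turn. The 2 h call was lost without replicate 2 of 0 h (adjusted p = 0.0848 by edgeR) or replicate 1 of 2 h (0.14), and the 4 h call without replicate 2 of 0 h (0.157) or either 4 h library (0.0799 and 0.0932). In Ishikawa cells SRGAP1 held 16.3 and 14.5 CPM at 0 h and 14.1 to 14.7 later, with log2 fold changes between -0.11 and -0.07 and no call.

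SRGAP2, an inverse F-BAR protein that shapes filopodia, was the most abundant srGAP per kb in both lines and was called lower in both. In T-47D cells it held 130.1 and 142 CPM at 0 h, 116 and 122 after 2 h, 106 and 109.8 after 4 h, and 111 and 117 after 8 h. It fell by 0.20 on the log2 scale at 2 h (SE 0.05, edgeR adjusted p = 0.022), by 0.34 at 4 h (SE 0.05, edgeR adjusted p = 0.000134) and by 0.26 at 8 h (SE 0.05, edgeR adjusted p = 0.00101). The 2 h call was lost without replicate 2 of 0 h (-0.12, edgeR adjusted p = 0.306), replicate 1 of 2 h (-0.15, edgeR adjusted p = 0.285) or replicate 2 of 2 h (-0.23, edgeR adjusted p = 0.0662). In Ishikawa cells SRGAP2 held 33.3 and 32.4 CPM at 0 h, 32.4 and 31.6 after 2 h, 27.0 and 27.4 after 4 h, and 29.4 and 25.8 after 8 h. The log2 fold change there was -0.27 at 4 h (SE 0.08, edgeR adjusted p = 0.0357) and -0.25 at 8 h (SE 0.08, edgeR adjusted p = 0.0306). Both Ishikawa calls were lost in most fits that left out 1 replicate, the 4 h call in 4 of 4 and the 8 h call in 3 of 4, where it was -0.18 without replicate 2 of 8 h (edgeR adjusted p = 0.253).

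SRGAP2 has near-identical partial copies on chromosome 1, so its counts are uncertain. SRGAP2B held 615 to 1132 counts in Ishikawa and 602 to 966 in T-47D libraries, while SRGAP2C and SRGAP2D had 0 counts in all 16. With SRGAP2 and its copies summed, an alternative chosen after seeing the data, the log2 fold change in T-47D cells was -0.18, -0.29 and -0.23 at 2, 4 and 8 h, each still called (edgeR adjusted p of at most 0.0321). In Ishikawa cells it was -0.17 at 4 h (edgeR adjusted p = 0.15) and -0.11 at 8 h (edgeR adjusted p = 0.325).

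**Figure D4:**
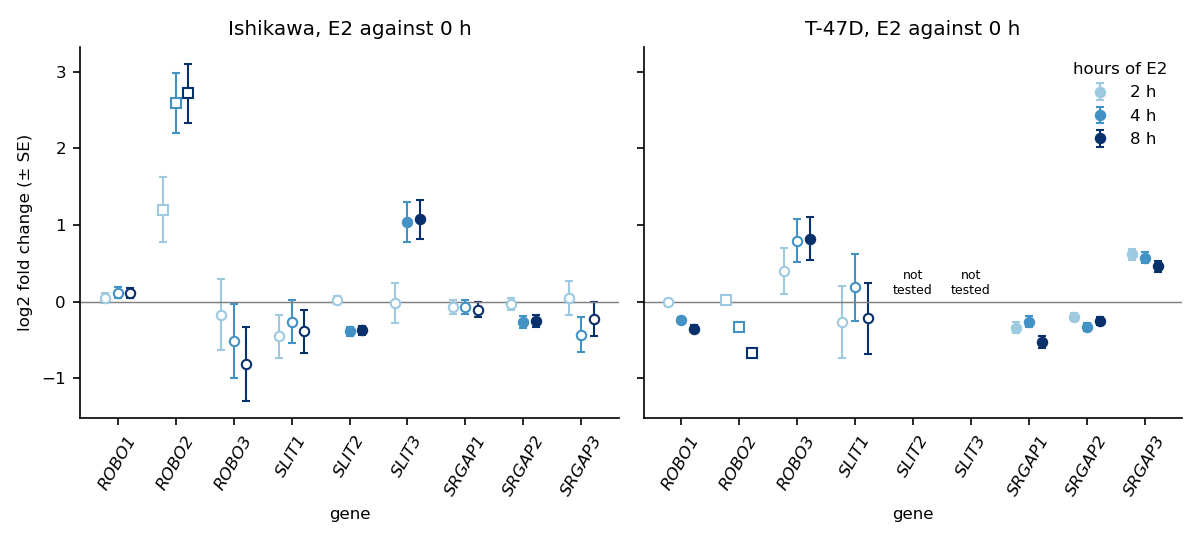
Log2 fold change (± SE) of each gene at 2, 4 and 8 h of E2 against 0 h in Ishikawa (left) and T-47D (right), filled circles where the adjusted p was under 0.05, open circles where it was not, and squares for ROBO2, which was not tested. SLIT3 sits near 1 at 4 h and 8 h in Ishikawa, and SRGAP3 sits between 0.46 and 0.62 at all 3 times in T-47D.

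Counted over the 8 genes other than ROBO2 in Ishikawa cells, none passed the test at 2 h, when 4.35% of all genes tested did (none of the 8 had an unadjusted p under 0.05 either, and DESeq2 also called none). At 4 h and at 8 h 3 of the 8 passed, SLIT3 upward and SLIT2 and SRGAP2 downward, against 14.3% and 22.1% of all genes. Between 2 h and 8 h 2 passed, against 2.24%. In T-47D cells 6 of the 8 could be tested. Of these 3 passed at 2 h, 4 at 4 h and 5 at 8 h, against 9.30%, 21.5% and 29.7% of all genes. At 8 h ROBO3 and SRGAP3 were upward and ROBO1, SRGAP1 and SRGAP2 downward, and 1 passed between 2 h and 8 h, against 16.8%. The median log2 fold change of these genes at 8 h was -0.24 in both lines, beside -0.01 over all genes in Ishikawa and 0.00 in T-47D cells, and the median size was 0.32 beside 0.18 in Ishikawa and 0.41 beside 0.17 in T-47D cells. Under the study's naming, by which an Early gene has already changed at 2 h, the called srGAP genes of T-47D cells were Early and the other calls Late.

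The difference between the lines in the response itself was tested as the T-47D change minus the Ishikawa change, over the 6 other genes that could be tested in both lines. At 2 h none passed, against 2.67% of all genes. SRGAP3 came nearest at 0.59 (SE 0.18, edgeR adjusted p = 0.106), SRGAP1 and SRGAP3 had an unadjusted p under 0.05 at 2 h, and DESeq2 called none. At 4 h 2 passed, against 6.03%. ROBO1 differed by -0.34 (SE 0.08, edgeR adjusted p = 0.0131) and SRGAP3 by 1.02 (SE 0.19, edgeR adjusted p = 0.00157). At 8 h 3 passed, against 10.0%. ROBO1 differed by -0.47 (SE 0.08, edgeR adjusted p = 0.00054), SRGAP1 by -0.43 (SE 0.12, edgeR adjusted p = 0.0253) and SRGAP3 by 0.69 (SE 0.18, edgeR adjusted p = 0.018). ROBO3, at 1.63 at 8 h (SE 0.54, edgeR adjusted p = 0.0603), did not pass. ROBO2 differed by -1.16 (SE 0.35) at 2 h, -2.90 (SE 0.30) at 4 h and -3.39 (SE 0.28) at 8 h, between -4.18 and -2.89 at 8 h without replicate 1 or replicate 2 of 0 h in Ishikawa cells.

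The other genes of the pathway were taken as 3 lists of textbook partners. Of 12 partners and co-receptors, 9 could be tested in each line, and ROBO4, the endothelial ROBO, had at most 2 counts in any library. At 8 h 2 partners rose and 2 fell in Ishikawa cells, and 2 rose and 4 fell in T-47D cells, beside 12% of all genes up and 10.1% down in Ishikawa and 15.4% up and 14.3% down in T-47D cells. FLRT3, a membrane protein that binds ROBO1, fell in both, by 0.72 on the log2 scale in Ishikawa (SE 0.24, edgeR adjusted p = 0.042) and by 0.96 in T-47D cells (SE 0.11, edgeR adjusted p = 1.61e-06). In Ishikawa cells FLRT3 went from 139 and 144 counts at 0 h to between 85 and 101 after 8 h. In CPM (mean ± SD) that was 2.98 ± 0.114 and 1.83 ± 0.582, so the 8 h libraries lay apart, and the call is close to the threshold. Its mean in T-47D cells went from 18.8 ± 1.06 to 9.65 ± 1.58 CPM. GPC1, a heparan sulfate carrier that binds SLIT2, rose by 0.55 in Ishikawa cells (SE 0.06, edgeR adjusted p = 2.89e-05), from a mean of 171 to 251 CPM. Its means in T-47D cells were 57.1 CPM at 0 h and 54.7 CPM at 8 h, and the change differed between the lines by -0.61 (SE 0.08, edgeR adjusted p = 4.03e-05). NTN1, which encodes the attractant netrin-1 whose signal SLIT can silence, rose by 0.53 in T-47D cells (SE 0.05, edgeR adjusted p = 2.22e-07), from a mean of 90.0 to 130.1 CPM.

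Of 23 cytoskeletal and GTPase effectors, all 23 were tested in Ishikawa and 22 in T-47D cells. At 8 h 3 rose and 3 fell in Ishikawa cells, and 3 rose and 9 fell in T-47D cells, to be read beside the same shares of all genes. The median effector moved by 0.03 in Ishikawa and by -0.10 in T-47D cells. MYO9B, a myosin that acts below ROBO1, fell by 0.43 in Ishikawa cells (SE 0.07, edgeR adjusted p = 0.000321) and by 0.33 in T-47D cells (SE 0.05, edgeR adjusted p = 0.000124). VASP, an actin elongation factor, fell by 0.49 in T-47D cells (SE 0.06, edgeR adjusted p = 4.51e-06) and by 0.32 in Ishikawa cells (SE 0.08, edgeR adjusted p = 0.0123). CAP2, an actin-binding partner of adenylyl cyclase, rose by 0.53 in T-47D cells (SE 0.05, edgeR adjusted p = 2.11e-07), and the change differed between the lines by 0.67 (SE 0.12, edgeR adjusted p = 0.00118). PAK3, a kinase activated by RAC1 and CDC42, fell by 0.65 in Ishikawa cells (SE 0.22, edgeR adjusted p = 0.049) and had at most 8 counts in T-47D libraries. Of the 5 genes of receptor sorting and turnover, 2 rose in Ishikawa cells at 8 h, beside 12% of all genes. In T-47D cells 1 rose and 1 fell, beside 15.4% of all genes up and 14.3% down. NDFIP2, an adaptor of NEDD4 family ubiquitin ligases, was the 1 that rose in both (0.36, SE 0.08, edgeR adjusted p = 0.00616 in Ishikawa, and 0.25, SE 0.07, edgeR adjusted p = 0.00854 in T-47D cells). It was named after its values were seen.

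**Figure D5:**
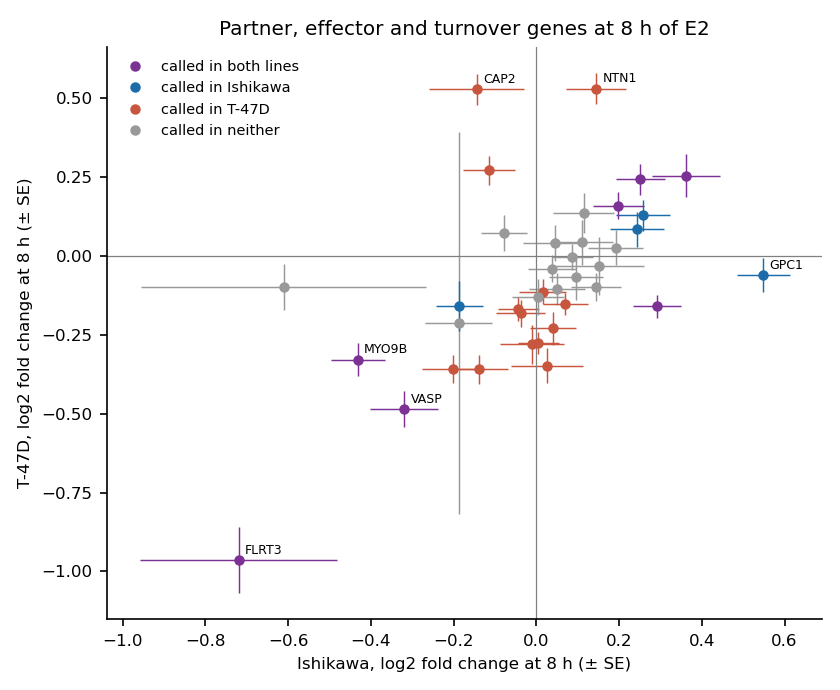
Log2 fold change (± SE) at 8 h of E2 in Ishikawa (x axis) and T-47D (y axis) of the 38 partner, effector, turnover and SRGAP2-related genes fitted in both lines, coloured by the line or lines in which the adjusted p was under 0.05. FLRT3 lies lowest in both lines, and GPC1 (Ishikawa) and NTN1 and CAP2 (T-47D) lie highest in 1 line each.

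The genes whose pattern over the 8 Ishikawa libraries was most like that of ROBO2 were PRKAR2A, POC1B, C1orf109, YWHAG and NAF1 (Pearson's r of log2 CPM from 0.996 down to 0.992, among 14415 genes). Those most opposed were PXN, ST5 and RHBDF1, from -0.995 to -0.993. The 8 points share 4 time points, so any gene that steps up between 0 h, 2 h and the late libraries scores high, and the values are a description only. All 5 had much smaller changes than ROBO2 at 8 h, from 0.27 for PRKAR2A to 0.61 for POC1B on the log2 scale. Of the 6 family genes tested in T-47D cells ROBO3 had the largest 8 h change, and TRIM27, PPP3CC, AREG, DDX24 and WDR74 were most like it over the 8 libraries (r from 0.992 down to 0.966, among 14169 genes). PACSIN2, PALM3 and SNN were most opposed (r from -0.983 to -0.976). AREG, an epidermal growth factor receptor ligand, changed by 1.54 at 8 h (SE 0.19). For SLIT3 in Ishikawa cells, looked at after its split libraries were seen, TOMM40 was most like it (r = 0.989) and ST6GALNAC2 most opposed (r = -0.996), with 8 h changes of 0.26 (SE 0.09) and -0.54 (SE 0.20).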

How the data were processed

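RNA was prepared with a directional poly(A) kit. Per the labels and the methods, the authors used HISAT2 for alignment to hg19, SAMtools for conversion and featureCounts for counting over UCSC Known Genes. They deposited raw counts per gene, 1 table for each cell line, with no normalization. Tool versions, strand, read pair and multimapping settings are not given in the sources used here. Groups follow the labels (cell line and hours of E2).

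The deposited counts were tested in R 4.3.3 with edgeR 4.0.16 (filterByExpr with a minimum count of 10, TMM scaling, quasi-likelihood F-test, Benjamini-Hochberg over all genes tested, adjusted p under 0.05). Each line was fitted on its 8 libraries, and all 16 were fitted together for differences between lines. Each SE is the size of the change over the root of its F statistic. SLIT2 and SLIT3 did not pass the filter in T-47D cells. Lengths and positions came from GENCODE v44 lifted to GRCh37, in which 22494 of 26364 gene symbols (85.3%) were found. Likeness used log2 CPM with a prior count of 2 and genes with a mean of at least 20 counts. Named genes were the 9 members, in each line the 4 pathway genes with the largest called 8 h change, GREB1, PGR and TFF1 as E2 controls, SRGAP2 copies, overlapping genes, and the 5 genes most like and 3 least like ROBO2 and the T-47D member other than ROBO2 with the largest change. The members and lists were chosen with earlier results of these data known. Alternatives were DESeq2 1.42.0, other scalings, filters and thresholds, a replicate block, counts divided by 2, pooled late libraries and leaving out each replicate. The fits were tested on simulated data, where false calls were more frequent than the threshold allows in both lines, so calls close to it are less certain.

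Replicates of a group were never identical over all genes, and their counts differed by more than sampling noise (chi-square per gene from 3.70 to 11.4). Replicate numbers did not pair the libraries (correlation of deviations from -0.115 to 0.0595).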

Additional observations from a re-analysis of the deposited data

Results flagged for a closer look

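In 5 results the 2 cell lines responded differently to E2, as judged by an interaction term in edgeR (quasi-likelihood, adjusted over all genes, T-47D minus Ishikawa, 2 libraries per group). ROBO1 differed by -0.34 at 4 h and by -0.47 at 8 h. The 8 h value kept its call without each of the 8 libraries in turn, while the 4 h call was lost without replicate 2 of 0 h (-0.29, edgeR adjusted p = 0.0556) or replicate 1 of 4 h (-0.27, edgeR adjusted p = 0.0555) in Ishikawa cells. SRGAP3 differed by 1.02 at 4 h, called without each library in turn (0.80 to 1.25), and by 0.69 at 8 h, where the call was lost in 3 of 8 such fits (without replicate 2 of 0 h or replicate 1 of 8 h in Ishikawa, 0.65 and 0.53, or replicate 1 of 0 h in T-47D cells, 0.62). SRGAP1 differed by -0.43 at 8 h. That call was lost in 4 of 8 such fits (without replicate 2 of 0 h or replicate 1 of 8 h in either line, -0.34 to -0.44). It was also lost with the 4 h and 8 h libraries pooled in each line (-0.29, edgeR adjusted p = 0.163). That value takes in the T-47D 4 h libraries, so it is not a value for 8 h alone.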

How the results depend on the processing

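The count of the other 8 genes called moved by over 1.5 times in few settings. Only 1 was called at 4 h in Ishikawa cells, from 2 h to 8 h in Ishikawa cells, and in the difference between lines at 4 h and at 8 h, at an adjusted p under 0.01. From 2 h to 8 h in Ishikawa cells 1 was called with DESeq2 and 1 with the replicate block, where SLIT3 was lost (adjusted p = 0.0523). The replicate numbers did not pair the libraries, and the block changed no other call named here. Over fits without 1 replicate the counts ran from 1 to 2 at 4 h, 1 to 3 at 8 h and 1 to 2 from 2 h to 8 h in Ishikawa cells, 1 to 3 at 2 h in T-47D cells, and in the difference between lines 1 to 2 at 4 h and 1 to 4 at 8 h. ROBO2 at 8 h ran from 2.23 to 3.48 in Ishikawa cells and from -4.18 to -2.89 as the difference between lines. Its 2 h value in T-47D cells ran from -0.0045 to 0.0695, below 0 without replicate 1 of 0 h. ROBO1 stood 3.57 times as high as ROBO2 per kb in T-47D cells at 0 h, and 3.03 times with the longest transcript. By Spearman's rank correlation, at which 32 genes tied at 1.00, 2 of the 5 genes most like ROBO2 remained. ROBO3 passed at 4 h in T-47D cells with no filter (edgeR adjusted p = 0.0268) or at least 10 counts in every library (0.0415). Its 8 h difference between lines passed with no filter (0.0316) or with at least 10 counts in every library (0.0375). With the 4 h and 8 h libraries pooled in each line, T-47D included, the ROBO3 difference also passed (0.04). With no filter the SE of SLIT3 from 2 h to 8 h was 0.0759, against 0.26 with the filter, so calls made with no filter take in less of the spread between replicates. SRGAP2 in Ishikawa cells was not called with only the time points compared (0.0659 at 4 h and 0.0776 at 8 h), nor was ROBO3 at 8 h in T-47D cells (0.0549). Median-of-ratios scaling and counts divided by 2 changed no call named here. Leaving out a library also leaves fewer libraries to estimate the spread from.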
